A study of Heterocephalus glaber and Mus musculus with 9 samples.

Results

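Gata1, Tal1, Gfi1b, Nfe2, Epor, Tfrc, Tfr2 and Phospho1 are 8 of the 12946 genes whose RNA was counted in the spleens of naked mole-rats (NM-Rs) and mice. They were chosen by symbol, as erythroid regulators, receptors and 1 phosphatase whose NM-R and mouse levels in these same data were already known, so their difference between the species is described here and not tested. All 8 symbols were found in the table of normalized counts.

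RNA came from whole frozen spleens, 1 library for each animal. The 3 mice were healthy C57Bl/6N males aged 2 months, and the 6 NM-Rs were healthy non-reproductive animals, 3 with small spleens (ssNM-R 2, 3 and 6) and 3 with large spleens (lsNM-R 1, 4 and 5). No animal was treated, and no gene was altered. The ssNM-Rs were males aged 30, 26 and 23 months in that order. lsNM-R 1 and lsNM-R 5 were males aged 24 and 23 months, and lsNM-R 4 was a female aged 29 months. NM-Rs were housed warmer than mice, so species, age and housing temperature cannot be told apart in any comparison of NM-R with mouse. The libraries held 10441982 to 11180912 reads in the mice, 7815326 to 18219644 in the ssNM-Rs and 8327759 to 18387599 in the lsNM-Rs, counted over the genes of the table. A normalized count is the number of reads of a gene divided by a size factor of its library. It is not divided by gene length, and each species was read on its own genome and gene models, so a ratio between species also holds any difference in the length of the 2 gene models.

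Red cells are made from erythroblasts, precursors that divide a few times, fill with haemoglobin and lose their nucleus. GATA1 and TAL1 sit together on DNA and switch on most genes of the lineage, GFI1B represses genes of earlier stages and other lineages, and NFE2 drives globin genes and platelet formation. Erythropoietin, read by EPOR, keeps the precursors alive, and TFRC carries transferrin-bound iron into them. In rodents the spleen can make red cells beside the bone marrow. Gata1, Tal1, Gfi1b and Nfe2 are also used by megakaryocytes, the precursors of platelets, and Tfrc by most dividing cells. A bulk library cannot tell more cells of a type from more RNA in each cell.

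Because GATA1 binds a short DNA word, the mouse DNA just before the start site was read for each member, on the forward strand of the gene, in mm9. The start was that of the protein-coding transcript with the longest coding sequence in GENCODE vM1, and the window was the 250 bases before it. For Gata1 and Nfe2 this start (chrX:7545036 and chr15:103081896) lay inside the span of the gene model. A missing word in those windows says nothing of the DNA before the outer end of the gene. The word AGATAA was searched on both strands, with T also allowed as its first letter and G as its last. It stood in 3 of the 8 windows, those of Tal1, Gfi1b and Epor, and in 17.98% of 10442 windows of all genes of the table. The stretches around this word are shown for the 2 regulators and the erythropoietin receptor whose windows hold it. Binding by GATA1 was not measured, and a word this common is not read as a link to GATA1. Capitals mark the GATA word (TTATCT is AGATAA on the other strand), and a match is a description, not a shown binding site.
Tal1, chr4:114728796-114728861 (+ strand): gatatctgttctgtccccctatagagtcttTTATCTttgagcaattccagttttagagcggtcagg
Gfi1b, chr2:28477587-28477652 (− strand): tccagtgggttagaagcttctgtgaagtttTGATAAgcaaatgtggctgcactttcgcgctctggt
Epor, chr9:21768039-21768104 (− strand): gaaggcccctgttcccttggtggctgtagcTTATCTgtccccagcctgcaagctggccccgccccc
The word began 205 bases before the start of Tal1, 120 bases before that of Gfi1b and 54 bases before that of Epor. The core bound by NFE2 and by AP-1 factors, TGAGTCA on either strand, stood in the window of Phospho1 alone among the 8 and in 3.10% of all windows. The word CCACACCC on either strand, read by KLF1, stood in the window of Tfr2 alone among them and in 3.11% of all windows. Other spellings of this word were not searched, so the other windows are not shown to lack one.

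The members lie on 8 chromosomes of mm9, namely Gata1 at chrX:7536386-7555197, Tal1 at chr4:114729031-114744360, Gfi1b at chr2:28464970-28477502, Nfe2 at chr15:103078643-103088834, Epor at chr9:21763343-21768020, Tfrc at chr16:32609006-32632880, Tfr2, annotated there as Trfr2, at chr5:138011079-138028709 and Phospho1 at chr11:95685813-95693454. The first 7 shared no exon bases with another gene model. Of the 2151 exon bases of Phospho1, 1818 (84.5%) were also exon of Zfp652 on the same strand and 1708 (79.4%) were exon of Abi3 on the opposite strand, leaving 333 to Phospho1 alone. Abi3 was itself in the table, at 1436 to 1615 normalized counts in the mice and 278 to 389 in the NM-Rs. Many zinc finger genes bear human-style symbols in the table, and Znf652, which by its name is the counterpart of Zfp652, had 1840.4 to 2119 in the mice and 1526 to 2814 in the NM-Rs.

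Among the 4 regulators, all 6 NM-R spleens stood above all 3 mouse spleens in every gene. Gata1 had 304, 789 and 1053 normalized counts in mice 1, 2 and 3, 5556, 4887 and 4623 in ssNM-R 2, 3 and 6, and 4061, 5795 and 4114 in lsNM-R 1, 4 and 5. The mouse mean was 715 ± 379.8 (SD, n = 3) against 4839 ± 722 for the NM-Rs (SD, n = 6), a ratio of 6.76. The highest NM-R was 1.43 times the lowest, where the highest mouse was 3.46 times the lowest, and the 2 NM-R cohorts overlapped.

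Tal1 was the most counted of the regulators, with 710 normalized counts in mouse 1, 1991 in mouse 2 and 2243 in mouse 3. The ssNM-Rs had 17781, 14271 and 12933 (ssNM-R 2, 3 and 6), and the lsNM-Rs 13764, 19659 and 13434 (lsNM-R 1, 4 and 5), a ratio of NM-R to mouse means of 9.29. The highest spleens were lsNM-R 4 and ssNM-R 2, as they were for Gata1. Nfe2 repeated this order, with 529, 1244 and 1539 in the mice, 11338, 9673 and 8164 in the ssNM-Rs and 9238, 12919 and 8236 in the lsNM-Rs, and a ratio of 8.99. The level of Nfe2 over that of Tal1 in the same spleen was nearly the same in both species, at 0.685 ± 0.060 in the mice (SD, n = 3) against 0.648 ± 0.025 in the NM-Rs (SD, n = 6), with overlapping ranges.

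Gfi1b had 207, 451 and 661 normalized counts in mice 1, 2 and 3, 4189.9, 3456 and 2919.6 in ssNM-R 2, 3 and 6, and 2854, 2891 and 2454 in lsNM-R 1, 4 and 5. Its ratio of NM-R to mouse means was 7.12. Unlike the other 3 regulators, Gfi1b was not raised in lsNM-R 4, and all 3 lsNM-Rs lay below all 3 ssNM-Rs.

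The receptors showed the same gap between species, with different spreads. Epor had 367, 687 and 879.8 normalized counts in mice 1, 2 and 3, and 7919, 7709 and 7767 in ssNM-R 2, 3 and 6. The lsNM-Rs had 7054, 7977 and 6663, and the ratio of means was 11.7. Epor was the steadiest member, with a coefficient of variation of 7.08% over the 6 NM-Rs against 13.6% to 30.3% for the other 7.

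Tfrc was the most variable member in NM-Rs and had the smallest ratio between species, 4.50. It had 2089, 5252 and 7013 normalized counts in mice 1, 2 and 3, 25525, 18658 and 13222 in ssNM-R 2, 3 and 6, and 22485, 31732 and 17679 in lsNM-R 1, 4 and 5. The lowest NM-R was 1.89 times the highest mouse, the narrowest gap of the 8. Tfr2, which senses iron-loaded transferrin and is found with EPOR at the surface of erythroid cells, had 114, 301 and 359.7 in the mice, 4037, 3521 and 3014 in the ssNM-Rs and 3299, 2835 and 2832 in the lsNM-Rs, a ratio of 12.6. Within each spleen Tfrc therefore stood 18.4 ± 1.03 times over Tfr2 in the mice (SD, n = 3) but 6.71 ± 2.36 times in the NM-Rs (SD, n = 6), where lsNM-R 4 was highest at 11.2.

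Phospho1, a phosphatase of phosphocholine and phosphoethanolamine best known from mineralizing cartilage and bone, had by far the widest gap. The mice had 23.1, 28.3 and 46.1 normalized counts, from 23 to 44 reads, and the NM-Rs had 6130.3 to 9379, with 9379, 7583 and 7564 in ssNM-R 2, 3 and 6 and 7555, 7382 and 6130.3 in lsNM-R 1, 4 and 5. The ratio of means was 234, and it ranked 4th among 10903 genes averaging 10 or more normalized counts in mice, where the other members ranked between 165 and 745. In NM-Rs it was counted as often as Epor, with a ratio to Epor of 1.01 ± 0.101 (SD, n = 6) against 0.052 ± 0.011 in mice (SD, n = 3). If the mouse reads were assigned only from the 333 exon bases that no other mouse gene model shares, the mouse level would be 97.6 ± 36.3 per kilobase of them (SD, n = 3), and the ratio scaled to the full exon length 36.2. How reads in the shared exons were assigned, and the gene models used for counting, are not given in the sources used here, so this part of the ratio was not tested.

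**Figure D1:**
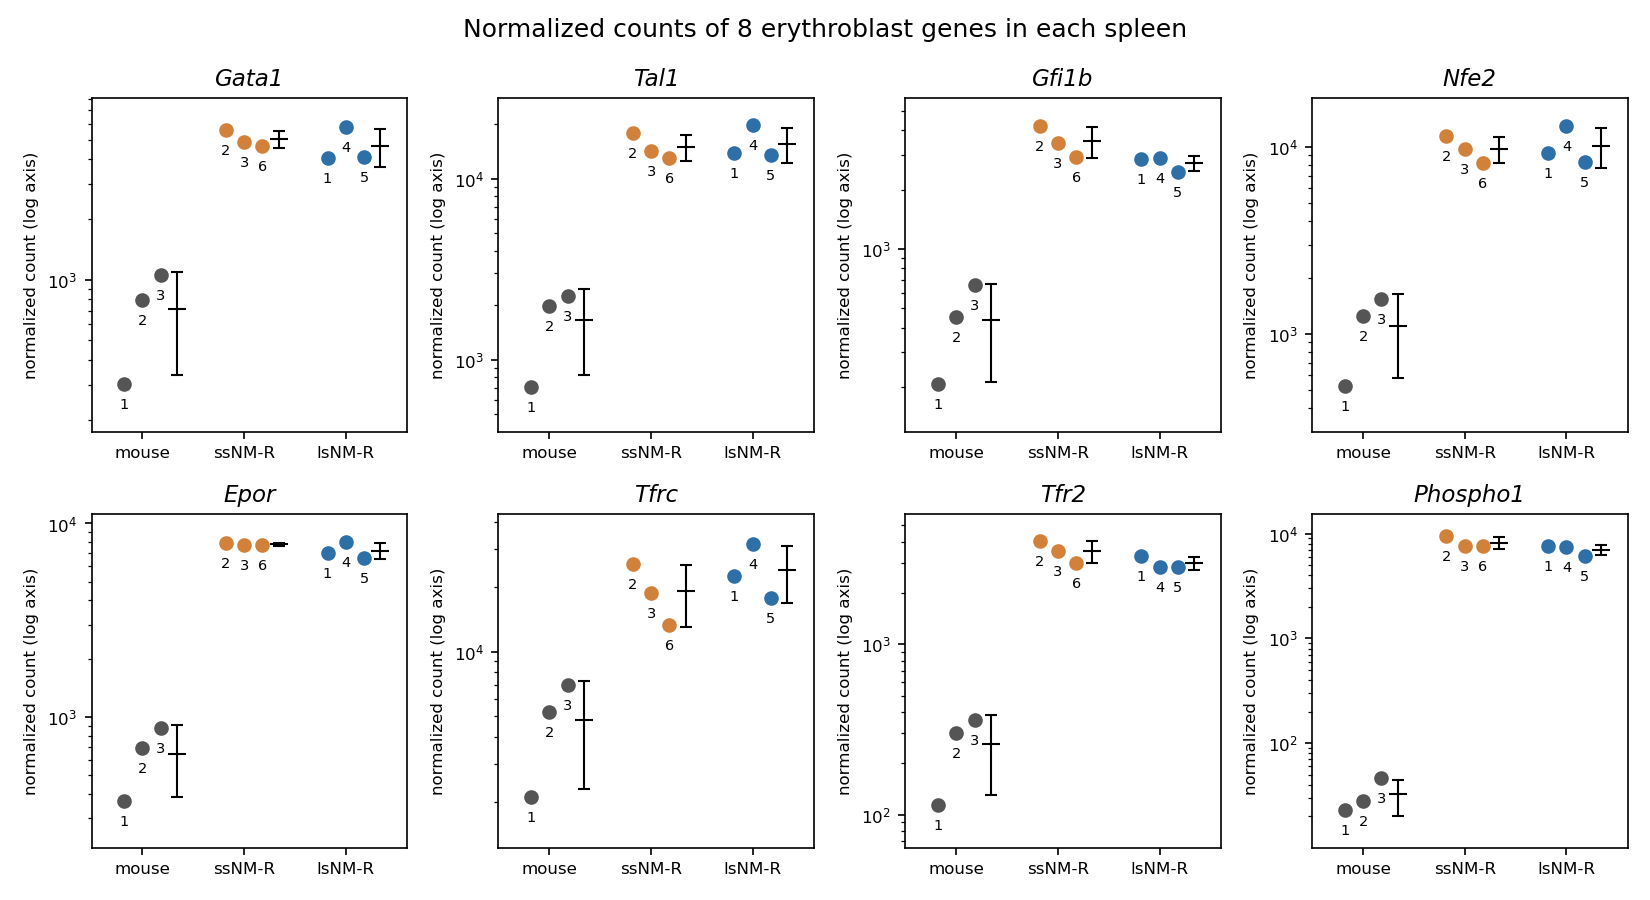
Normalized counts (log axis) of the 8 genes in each spleen, with the spleen's number beside its point and the mean ± SD of each group (n = 3) to the right of its points. In every panel the 6 NM-R spleens sit above the 3 mouse spleens, mouse 1 is lowest, and Phospho1 has the widest gap, from at most 46.1 in mice to at least 6130.3 in NM-Rs.

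For all 8 members every NM-R spleen lay above every mouse spleen, a description of genes chosen for this contrast; 36.4% of all genes did so. By limma with Benjamini-Hochberg adjustment, 39.7% of all genes were called higher in NM-Rs and 38.8% lower at an adjusted p under 0.05, which was read only for genes that are not members.

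Levels were also set per kilobase of exon in the mice, by the gene models of GENCODE vM1. Those used for counting are not given and may differ. Tfrc was highest in all 3 mice, at 774 ± 403 normalized counts per kilobase (SD, n = 3). Tal1 at 376 ± 188, Nfe2 at 369 ± 174 and Epor at 352 ± 142 followed and changed places from mouse to mouse, so their order is not resolved. Gata1 at 293 ± 156, Gfi1b at 240.2 ± 124, Tfr2 at 88.3 ± 43.8 and Phospho1 at 15.1 ± 5.63 came 5th to 8th in each mouse. The last place of Phospho1 counts all its exon bases. Over the 333 that no other gene model shares it would be 97.6 ± 36.3 (SD, n = 3). Its order with Tfr2 is therefore not resolved.

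The 3 mice did not agree on the level of these genes. In all 8 the order was mouse 1, then mouse 2, then mouse 3. Mouse 1 stood at 33.0% to 46.9% of the mean of mice 2 and 3 for 7 members and at 62.0% for Phospho1. Over the 8777 genes averaging 100 or more normalized counts in mice, the median was 101%, and 1.93% of them were under 50%. The library of mouse 1 was thus low in erythroid genes while its median gene was not. Its median over the 15 red cell end products in the table (haem synthesis, membrane skeleton and surface proteins of the red cell, such as Alas2, Ank1 and Slc4a1) was 29.1%, over 5 cell cycle genes 52.9%, over 10 megakaryocyte markers 98.7%, over 9 B cell markers 100.4% and over 8 macrophage markers 126%. Without mouse 1 the ratio of NM-R to mouse means was 5.25 for Gata1, 7.23 for Tal1, 5.63 for Gfi1b, 7.13 for Nfe2, 9.59 for Epor, 3.51 for Tfrc, 9.86 for Tfr2 and 204 for Phospho1.

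To see the members in proportion to red cell RNA, each was set against the mean log2 level of the 15 end products of the same spleen, a step chosen after the values were seen. That mean was 11.33 ± 0.97 in the mice (SD, n = 3) against 13.75 ± 0.25 in the NM-Rs (SD, n = 6), a difference of 2.42 on the log2 scale. The spread among mice nearly vanished for Gata1, from an SD of 0.94 to 0.05 log2 units, for Tfrc, from 0.91 to 0.07, and for Tfr2, from 0.88 to 0.09. Epor kept an SD of 0.33, and for Phospho1 the SD rose from 0.50 to 0.61. Among the 6 NM-Rs the spread changed less: the SD went from 0.21 to 0.18 for Gata1, from 0.26 to 0.12 for Nfe2, from 0.44 to 0.26 for Tfrc and from 0.20 to 0.21 for Tfr2, and for Epor it rose from 0.11 to 0.21. The step takes the same 2.42 from every gene's difference between species, so that difference went from 2.92 to 0.50 for Gata1, from 2.96 to 0.54 for Gfi1b, from 3.28 to 0.86 for Nfe2, from 3.36 to 0.94 for Tal1, from 3.63 to 1.21 for Epor and from 3.80 to 1.37 for Tfr2. For these 6 and Phospho1 every NM-R still lay above every mouse, as it did on this scale for 4.18% of all genes, and nothing is read from this for members chosen on the same contrast. Tfrc turned to −0.14, and its NM-R and mouse spleens overlapped in proportion to the end products. Phospho1 kept 5.45 of its 7.87 log2 units.

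**Figure D2:**
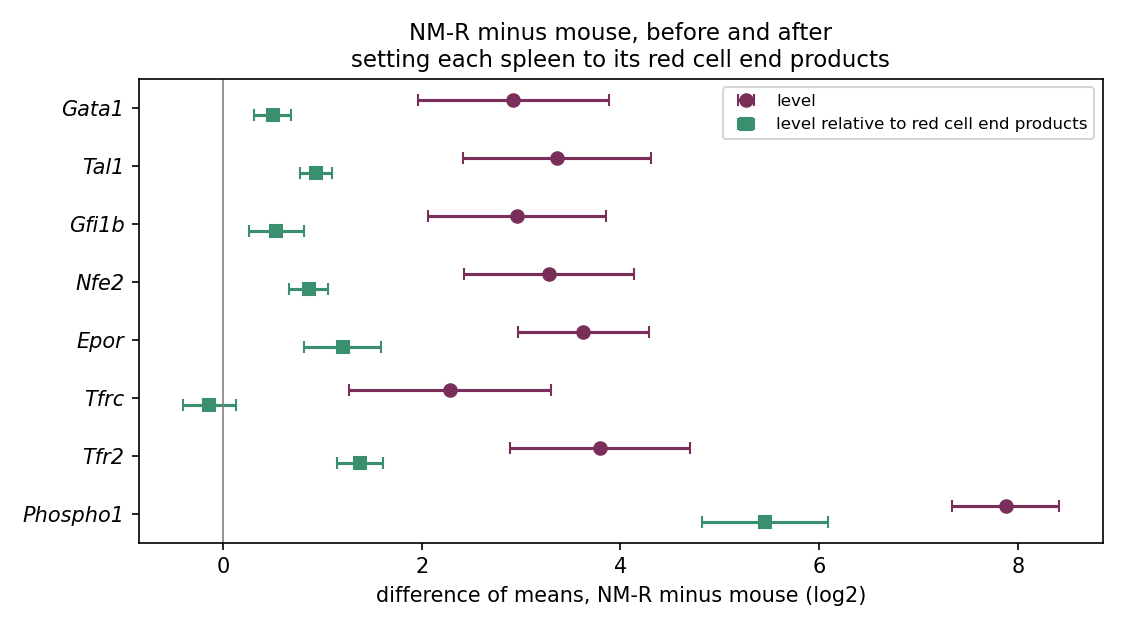
Difference of mean log2 levels, NM-R minus mouse (x axis), for each gene (y axis), as measured (circles) and after each spleen is set to the mean of its 15 red cell end products (squares); bars are the square root of the sum of the squared SDs of the groups (3 mice, 6 NM-Rs). Each gene moves by the same 2.42 log2 units, which leaves Tfrc at −0.14 and Phospho1 at 5.45.

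Between the NM-R cohorts, a contrast that did not choose the genes, none of the 8 members was called, and neither was any other gene (0% of 12946, limma over all 9 spleens, smallest adjusted p = 0.429). The unadjusted p was under 0.05 for 1138 genes, none of them a member. edgeR also called 0 genes (1106 by its unadjusted p), whereas 57 were called by DESeq2, none of them a member. The limma adjusted p-values of the members lay between 0.784 and 0.991. The 9-spleen fit takes in the wide spread of the mice, so intervals are also given from the 6 NM-Rs alone. There the log2 fold change of lsNM-R over ssNM-R was −0.12 for Gata1 (95% interval −0.54 to 0.29), 0.05 for Tal1 (−0.48 to 0.58), −0.35 for Gfi1b (−0.73 to 0.03) and 0.04 for Nfe2 (−0.49 to 0.58). It was −0.11 for Epor (−0.35 to 0.12), 0.33 for Tfrc (−0.49 to 1.16), −0.23 for Tfr2 (−0.56 to 0.10) and −0.22 for Phospho1 (−0.56 to 0.12). For Epor, the tightest, these limits correspond to a ratio of 0.786 to 1.09, and for Tfrc, the widest, to 0.71 to 2.24, so changes of Tfrc within these limits are not excluded. The signs of Tal1 and Nfe2 rested on single spleens: without lsNM-R 4 their fold changes were −0.13 and −0.14, and without ssNM-R 6 they were −0.05 and −0.07. In Gfi1b and Phospho1 all lsNM-Rs lay below all ssNM-Rs, although for Phospho1 the nearest spleens were 7555 and 7564. The cohorts did not overlap, in either direction, in 13.1% of all genes.

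**Figure D3:**
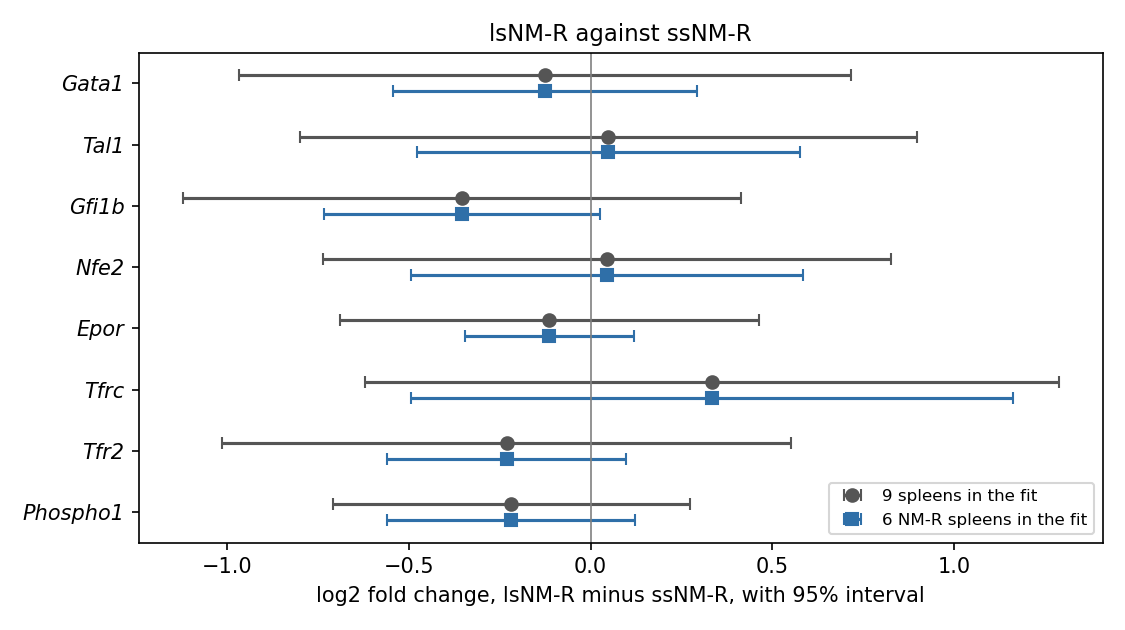
Log2 fold change of lsNM-R over ssNM-R (x axis) for each gene with its 95% interval from limma, fitted on all 9 spleens (circles) and on the 6 NM-R spleens (squares). All intervals include 0, and those from the NM-R spleens alone are narrower.

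Over the 6 NM-R spleens the 8 genes covaried, as a description with no test. Pearson's r of the log2 levels was positive in 28 of 28 pairs, with a median of 0.603 and a range of 0.167 to 0.978, and the median Spearman's rho was 0.600. Tal1 and Nfe2 were the closest pair (r = 0.978, rho = 1.00, and r = 0.929 without lsNM-R 4 and ssNM-R 2, the spleens farthest from the median). Tfrc and Tfr2, the receptors that share a ligand, had the lowest r (r = 0.167, rho = 0.257, and r = 0.785 without lsNM-R 4 and ssNM-R 6). By rho the lowest pair was Tfrc and Phospho1 (0.086), and with equal totals it was Tal1 and Tfr2 (r = −0.042). All pairs share the same 6 libraries and their size factors.

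The pairs fell into sets that were noticed after the values were seen. Gata1, Tal1, Nfe2 and Tfrc had a median r of 0.887 with each other, Gfi1b, Tfr2 and Phospho1 a median r of 0.920, and the 12 pairs between these sets a median r of 0.381. Epor lay between them, with r = 0.874 to Gata1, 0.717 to Phospho1 and 0.294 to Tfrc. This division rested on 1 spleen: lsNM-R 4 was the highest NM-R for Gata1, Tal1, Nfe2, Tfrc and Epor but not for Gfi1b, Tfr2 or Phospho1, and without it the pairs between the sets had a median r of 0.834. lsNM-R 4 was the only female and the second oldest animal, and sex, age and this library cannot be told apart in it. Without ssNM-R 2, the highest spleen for Gfi1b, Tfr2 and Phospho1, the median between the sets was 0.110, and 24 of the 28 pairs stayed positive. With each library scaled to the same total, 26 of 28 were positive. The 2 spleens farthest from the median of each pair's first gene were also left out. Median r was then 0.796 within the set of Gata1, 0.571 within that of Gfi1b and 0.788 between the sets. For the set of Gfi1b the spleens left out were ssNM-R 2 and ssNM-R 3.

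**Figure D4:**
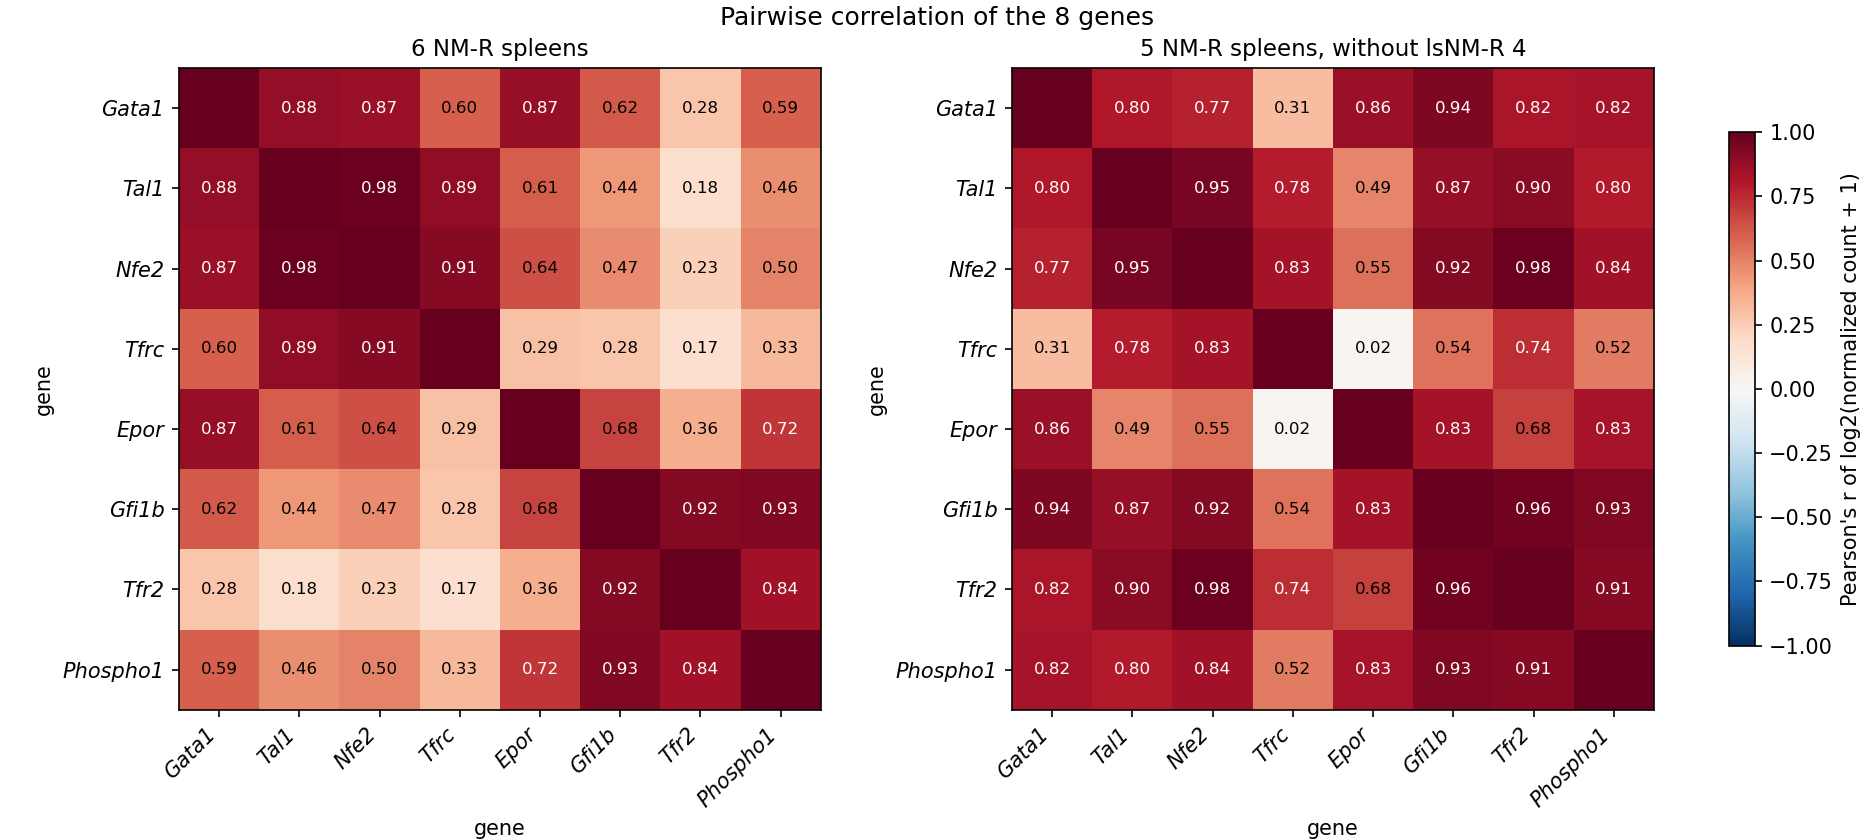
Pearson's r (colour and printed value) of log2(normalized count + 1) for each pair of genes, over the 6 NM-R spleens (left) and without lsNM-R 4 (right). The pale block between Gata1, Tal1, Nfe2 and Tfrc and the set of Gfi1b, Tfr2 and Phospho1 on the left, median r = 0.381, is darker on the right, median r = 0.834, while Tfrc with Gata1 and with Epor is paler there.

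The levels were set against the age of the NM-Rs after a pattern had been noticed in the same 6 animals, and no member passed a test after adjustment. ssNM-R 2 at 30 months and lsNM-R 4 at 29 months were the highest spleens, in either order, for Gata1, Tal1, Nfe2, Epor and Tfrc. For Tal1, r with age was 0.937 (exact permutation p = 0.0139, adjusted over the 8 genes 0.0556, n = 6), rho was 0.928 (exact permutation p = 0.0222), and r was 0.905 without the 2 spleens farthest from the median age. Nfe2 had r = 0.935 (exact permutation p = 0.0139, adjusted 0.0556) and rho = 0.928 (exact permutation p = 0.0222), with r = 0.924 without those 2 spleens. Gata1 had r = 0.906 (exact permutation p = 0.0306, adjusted 0.0815), which fell to 0.595 without them, and rho = 0.754 (exact permutation p = 0.106). For the other 5 members r lay between 0.498 (Tfr2) and 0.804 (Tfrc), in these 2-sided tests.

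In a limma fit across all genes with age and cohort as terms over the 6 NM-Rs, the slope was 0.08 log2 units per month for Tal1 (adjusted p = 0.269), 0.08 for Nfe2 (adjusted p = 0.264) and 0.13 for Tfrc (adjusted p = 0.264). That fit called no gene, member or other. At an unadjusted p under 0.05, 5 of the 8 members (Gata1, Tal1, Gfi1b, Nfe2 and Tfrc) had a rising slope, beside 8.03% of all genes. The pattern had been noticed in these animals first, and the members covaried over the same 6 spleens, so the 5 are not separate results. With age alone, without cohort, the limma fit called no gene either. The ages span 23 to 30 months, and the 2 oldest animals belong to different cohorts and differ in sex. ssNM-R 6 and lsNM-R 5, both aged 23 months, had the deepest libraries, at 18219644 and 18387599 reads. lsNM-R 4 had 16883689, and lsNM-R 1, ssNM-R 3 and ssNM-R 2 had 8327759, 7815326 and 8985705. The part of depth in the pattern with age was not tested.

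**Figure D5:**
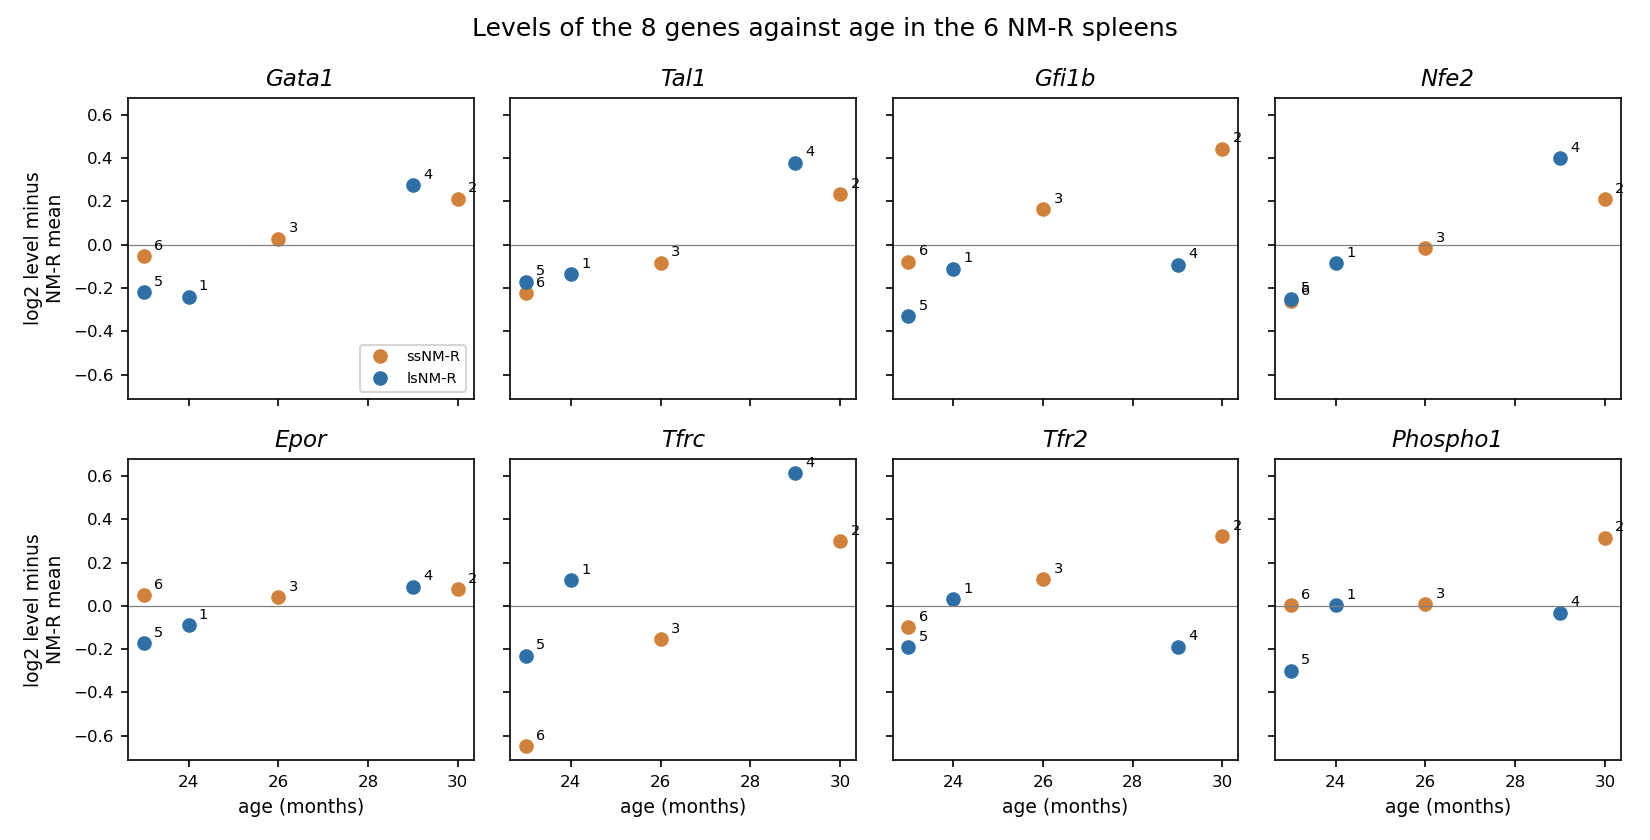
Log2 level of each gene minus its mean over the 6 NM-R spleens (y axis) against the age of the animal in months (x axis), with the number of each spleen; ssNM-R in orange and lsNM-R in blue. Tal1, Nfe2 and Gata1 stand higher at 29 and 30 months, while Gfi1b, Tfr2 and Phospho1 are high at 30 months and not at 29.

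Of the 7777 genes averaging 100 or more normalized counts in each species, the 10 most like the mean of the 8 members, by Pearson's r over the 9 spleens after the mean of each species was removed, had r from 0.990 to 0.997, beside a median of 0.028 over all of them. They included Kel (r = 0.997, and 0.977 over the 6 NM-Rs), which bears the Kell blood group, and Epb42 (0.997 and 0.990) and Sptb (0.993 and 0.982), parts of the red cell membrane skeleton. Slc25a37, or mitoferrin, which takes iron into mitochondria, had 0.993 and 0.996. Also among them were the DNA repair gene Brca1 (0.993 and 0.987), Arhgef39 (0.993 and 0.986), the mitotic kinesin Kif18a (0.992 and 0.962), Mboat2 (0.990 and 0.950) and the cell cycle factor E2f8 (0.990 and 0.924). Mouse 1, low in all members, has much weight in the first of each pair of values. In all, 230 genes reached 0.9.

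The partners of GATA1 and TAL1 did not share one direction. Of the 14 that were measured, 6 were called higher in NM-Rs, 4 lower and 4 not called, with a median log2 fold change of 0.30 beside 0.01 over all genes. Over all genes 39.7% were called higher and 38.8% lower. The counts of this and the later lists are read beside those shares, and this split is not taken as a trait of the partners. Ldb1 and Lmo2, which bridge GATA1 and TAL1 on DNA, rose from 3695 ± 193 to 11309 ± 819.8 and from 2290.3 ± 597 to 5387 ± 434 normalized counts (SD, n = 3 mice and 6 NM-Rs, limma adjusted p = 9.96e-08 and 2.94e-05). Klf1, the activator of adult globin genes, rose from 1033 ± 683 to 2136 ± 358 (limma adjusted p = 0.0186), Tcf3, the E protein that pairs with TAL1, from 3327 to 4926, Zfpm1, the FOG1 cofactor of GATA1, from 1879 to 2874, and Cbfa2t3 from 1187 to 1452. Zfpm1 was not called without mouse 1, mouse 2, ssNM-R 2, lsNM-R 1 or lsNM-R 4, nor Cbfa2t3 without mouse 2.

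Spi1, whose product PU.1 opposes GATA1 and drives myeloid and B cells, fell from 1764 ± 79.1 to 718 ± 82.6 (limma adjusted p = 1.33e-06). Gata1 over Spi1 in the same spleen was 0.164 to 0.600 in mice and 4.99 to 9.23 in NM-Rs. Ikzf1, the lymphoid regulator Ikaros, fell from 6983 to 4436, Bcl11a, a repressor of fetal globin that B cells also use, from 1856 to 1051, and Rcor1, a corepressor that GFI1B recruits, from 1284 to 987. Lyl1, Runx1, Sox6 and Fli1 were not called, at 1219 and 1198, 913 and 818, 749.9 and 1243, and 1539 and 1932 normalized counts in mice and NM-Rs. Sox6 was called higher without mouse 3 or ssNM-R 6 (limma adjusted p = 0.0289 and 0.0348), and Fli1 without ssNM-R 6 (limma adjusted p = 0.00125). Tcf12, Kdm1a, Hdac1, Hdac2, Gata2 and Myb were not analysed here. B cell markers moved with Spi1, Ikzf1 and Bcl11a, with 9 of 9 called lower in NM-Rs and a summed level of 58368 to 59443 in mice and 2719 to 7258 in NM-Rs, and their part in these 3 was not tested.

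NFE2 works as a pair with a small MAF protein. Mafg had 1214 ± 74.0 and 1339 ± 355 normalized counts in mice and NM-Rs and Mafk 892 ± 172 and 1149 ± 258, neither called (Mafk was called higher without ssNM-R 6, limma adjusted p = 0.038), while Maff fell from 33.0 to 11.03. Nfe2 over Mafg in the same spleen was 0.468 to 1.22 in mice and 6.29 to 9.51 in NM-Rs. Of 7 genes of this list 1 was called higher and 4 lower, with a median log2 fold change of −0.43. The one that rose was Bach1, a haem-sensing repressor of NFE2 target sites (1033 ± 54.6 to 2267 ± 505.1, limma adjusted p = 0.000303). Bach2, its lymphoid relative, fell from 2279.7 ± 97.0 to 71.9 ± 35.6 (limma adjusted p = 2.93e-07), and the stress factors Nfe2l1 and Nfe2l2 fell from 2797 to 1358 and from 1394 to 1039. The fall of Bach2 went with that of the B cell markers, and their part in it was not tested.

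Downstream of EPOR, 3 of 12 genes were called higher, 4 lower and 5 not called, with a median log2 fold change of 0.05. The docking protein Gab1 rose from 332 ± 23.2 to 1977 ± 178 (limma adjusted p = 1.05e-08), the kinase Pim1 from 1199.8 ± 158 to 4979 ± 642 (limma adjusted p = 2.43e-07) and Bcl2l1, the survival gene of late erythroblasts, from 1166 ± 483 to 2992 ± 283 (limma adjusted p = 0.000204). Jak2, the kinase bound to EPOR, had 2638 ± 97.7 and 2862 ± 383 in mice and NM-Rs (log2 fold change 0.11 ± 0.09 SE, limma adjusted p = 0.276), far from the gap of its receptor. The feedback genes Cish (258 and 296) and Socs3 (514 and 711), Pik3r1 (4049 and 4089) and the erythroblast hormone Erfe (45.1 and 33.5) were not called. The mean of Socs3 in NM-Rs was carried by ssNM-R 6: without that spleen it was 415, below the mice (limma adjusted p = 0.0243). Without mouse 2 the mouse mean of Erfe was 28.04, below the NM-Rs. Lyn (5213 to 2296), Ptpn6 (8328 to 4226), Cbl (1924 to 814) and Grb2 (3162 to 2485), which immune cells also use, fell. Epo, Stat5a, Stat5b, Shc1, Socs1 and Socs2 were not analysed here.

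Of 10 genes of iron entry 6 were called higher, 3 lower and 1 not called, with a median log2 fold change of 1.09. Steap3, the reductase that works in the same endosome as TFRC, rose from 463 ± 175 to 4301 ± 627 (limma adjusted p = 6.87e-07), a ratio of 9.29, and Slc11a2, the carrier that moves iron out of that endosome, from 837 ± 178 to 2727 ± 487 (limma adjusted p = 9.91e-06). Slc25a37 rose from 9399.8 to 20008, Ncoa4, which frees iron from ferritin, from 1858 to 6796, and Aco1 and Ireb2, whose products hold Tfrc mRNA stable when iron is short, from 922 to 2819.98 and from 1637 to 3231. Hfe, the partner of both transferrin receptors, fell from 1199 ± 60.3 to 476 ± 95.6 (limma adjusted p = 3.58e-05). The ferritin receptor Scara5 fell from 97.6 to 9.74, and Slc25a28, the mitoferrin of other tissues, from 643 to 526. Hjv stood near 0, at 4.29 and 2.00 normalized counts, and was not called. Tf, Pcbp1 and Pcbp2 were not analysed here.

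Of 10 other genes of choline and phosphoethanolamine handling, 2 were called higher, 4 lower and 4 not called, with a median log2 fold change of −0.15. The highest were Chpt1 (323 ± 57.2 to 529 ± 42.0, limma adjusted p = 0.000366) and Pcyt2 (808 ± 29.7 to 1175 ± 265, limma adjusted p = 0.00655), the last steps of phosphatidylcholine synthesis and a middle step of phosphatidylethanolamine synthesis. The lowest were Etnk1, the ethanolamine kinase, from 5704 ± 67.8 to 497 ± 103 (limma adjusted p = 6.53e-10), and Cept1, from 1148 ± 50.9 to 436 ± 30.3 (limma adjusted p = 1.3e-07). The highest ratio of NM-R to mouse means in this list was 1.63, for Chpt1, beside 234 for Phospho1.

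The erythroid label was set beside markers of the red cell that are not members. This list was chosen with earlier results of these data known, so it is no independent check of the label. Of 15 end products 14 were called higher in NM-Rs and 1, Epb41, was not, with a median log2 fold change of 2.51 and a summed level of 36968 to 104984 normalized counts in mice and 229584 to 359302 in NM-Rs. Kel (1685 ± 1055 to 39802 ± 7605, limma adjusted p = 2.33e-06) and Add2 (1025 ± 585 to 9878 ± 1491, limma adjusted p = 1.38e-05) rose most. Trim10 rose least of those called, from 2138 ± 1189 to 3766 ± 673 (limma adjusted p = 0.0222), and was not called without mouse 1. The globins Hba-a1 and Hbb-b1 and Gypc, Rhd, Ermap, Car1 and Car2 were not analysed here.

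Other cells that use these regulators were also measured, and their part in the members' levels was not tested. The counts of called markers stand beside 39.7% higher and 38.8% lower over all genes. Of 10 megakaryocyte markers 4 were called higher, among them Itga2b (1279.7 ± 217 to 6733 ± 1101, limma adjusted p = 5.61e-07) and Tubb1 (712 ± 159 to 2373 ± 719, limma adjusted p = 0.000126), 3 lower, with F2rl2 (275 to 2.78) and Vwf (1392 to 360.03) lowest, and 3 not called. The summed level of the 10 was 5855 to 8331 in mice and 9799.9 to 19106 in NM-Rs. Of 7 mast cell, basophil and eosinophil markers 4 were called higher, led by Hdc (159 to 676) and Cpa3 (23.9 to 104), and 2 lower, Ccr3 (1368 to 23.1) and Il5ra (329 to 21.0). Of 8 stem and progenitor markers 4 were called higher, led by Hoxa9 (5.63, or 3.56 without mouse 2, to 221) and Cd34 (353 to 1573), and 2 lower, Procr (205 to 90.2) and Flt3 (1024 to 524). All 5 cell cycle genes in the table were called higher, Birc5 not without mouse 1. Of 8 macrophage markers 2 were called higher, Siglec1 (2171 to 13052) and the iron exporter Slc40a1 (ratio 1.54), and 4 lower, with Adgre1 (2638 to 74.5) and Cd163 (1532 to 298, or to 162 without lsNM-R 1) lowest. Mertk was not called without mouse 1, nor Slc40a1 without mouse 3. Between lsNM-R and ssNM-R, limma and edgeR called none of the 115 genes of the 12 lists (0% of all genes in both), and DESeq2 called 1, Etnk1 (407 ± 39.0 in ssNM-R and 586 ± 32.7 in lsNM-R).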

How the data were processed

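RNA of 9 spleens was sequenced, 3 per group. Per the labels and the methods of the study, the authors aligned the reads with STAR 2.5.3a to mm9 or hetGla2, counted them per gene with HTSeq 0.10.0, joined the species by mouse homologue names and scaled each library by its DESeq2 size factor, which gave the deposited signal values, called normalized counts here. The strand setting and gene models are not given in the sources used here. The labels and the methods name different kits and instruments. Multiplied by a size factor, 100% of the values were whole within 0.01 reads. No column was left without a sample.

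Groups came from the labels. log2(normalized count + 1) was fitted with limma 3.58.1 (R 4.3.3) over all 12946 genes and 9 spleens, with a trend and Benjamini-Hochberg adjustment, and called at an adjusted p under 0.05. Fold changes are on this scale and understate those of low genes. Alternatives were edgeR 4.0.16 and DESeq2 1.42.0 on the recovered reads, other scalings, pseudocounts and filters, terms for depth, sex or a replicate block, and fits without each spleen in turn. The scripts were first tested on simulated data. The members and gene lists were chosen with earlier results of these data known. Named genes were the 8 members, the listed partners, the highest and lowest 2 of each other list and the 10 genes most like the members, of which 1 is not reported here. Each replicate was a separate animal.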

Additional observations from a re-analysis of the deposited data

Results flagged for a closer look

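In 3 of the 51 genes of the members and their partners, 1 NM-R spleen stood apart from the other 5 by Dixon's test at 95%, which flags about 1 in 20 groups by chance, and all 3 were in ssNM-R 6. Ikzf1 had 3446 normalized counts there and 4406 to 4808 in the other NM-Rs. Cbl, which ends EPOR signalling, had 310.3 there and 835 to 1037 in the others. Socs3, which damps cytokine signalling, had 2194 there and 364 to 490.4 in the others. None of the 8 members was set apart in this way in any spleen, and the cause was not tested.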

How the results depend on the processing

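Of 428 values recomputed for 24 results, 415 were labelled the same, 2 moved and 11 reversed. A fold change was the same if it kept its sign and its side of the threshold, whatever its size. A count or ratio was the same if it stayed within 1.5 times of the main value. The genes called between lsNM-R and ssNM-R, 0 by limma, numbered 57 by DESeq2 and 16 by DESeq2 on the NM-R spleens alone. The first of these DESeq2 fits called Etnk1 among the 115 listed genes, and the second none. No member was called between the cohorts in any of these fits, with adjusted p from 0.450 to 1. Outside the replicate block fit, an unadjusted p under 0.05 was met by Gfi1b and Tfrc only. Gfi1b had 0.0244 by DESeq2 on the NM-R spleens alone, beside 748 of 12946 genes under 0.05. In limma on those spleens with age as a term, Gfi1b had 0.0262 and Tfrc 0.00944, beside 1401 genes. The log2 fold change of lsNM-R over ssNM-R reversed with sex as a term for Tal1 (−0.13) and Nfe2 (−0.14). As lsNM-R 4 was the only female, this term gives the same fold changes as leaving that spleen out. It is no separate check, although the 11 reversals count both. With 1 spleen left out the fold change ranged from −0.13 to 0.18 for Tal1 and from −0.14 to 0.18 for Nfe2. With a replicate block, which left 1 residual degree of freedom, the reversed fold changes were 1.22 for Gata1, 0.98 for Gfi1b, 0.93 for Epor, 1.32 for Tfr2 and 0.47 for Phospho1. Those of Tal1, Nfe2 and Tfrc kept their sign but grew to 1.36, 1.21 and 1.58. All members thus moved upward together in that fit. In it ssNM-R 6, lsNM-R 4 and lsNM-R 5 share their number with no other spleen, so they do not enter the fold change. It compares lsNM-R 1 over mouse 1 with ssNM-R 2 and 3 over mice 2 and 3. Mouse 1, the lowest mouse in every member, thus enters the fold change between the cohorts. The numbers in the titles are shared only between mice and NM-Rs, with correlations of deviations of 0.06, 0.07 and −0.07, so they do not pair the spleens. No cause of these changes beyond the make-up of the fits was tested. Without mouse 1 or any other spleen the ratios of NM-R to mouse means moved by less than 1.5 times. Between species, the median gene had a log2 fold change of 0.01, −0.04 with equal totals and 0.10 with equal upper quartiles. Phospho1 rests on 23 to 44 reads in each mouse. Of the list calls between species not named above, Selp was lost without mouse 3, and Chkb (without mouse 2 or lsNM-R 1), Itgb3 and Hmox1 (both without lsNM-R 5) were gained.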
